A study of Caenorhabditis elegans with 2 samples.

Results

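Molecular chaperones of the nematode Caenorhabditis elegans are described here as possible targets of ZTF-18, a zinc finger protein. The genes were taken by symbol: every protein-coding gene of the WBcel235 assembly, the build called ce11, whose name begins with dnj-, pfd-, cct- or hsp- and a digit. That gave 65 of 19973 protein-coding genes on the 6 nuclear chromosomes, namely 29 DnaJ, 6 prefoldin, 8 chaperonin and 22 heat shock genes. The data come from 1 group of 2 samples, labelled as biological replicates, with no treated or untagged group beside them. Each is chromatin from whole young adult hermaphrodites of strain OP496, collected 64 hours after L1 larvae were synchronized by starvation. Both replicates came from this strain, in which a transgene encodes ZTF-18 joined at its C terminus to GFP and FLAG, and the sample descriptions give an anti-GFP antibody for the precipitation, while the antibody label reads ztf-18. The promoter of the transgene is not given. With anti-GFP the peaks report the tagged protein, summed over all tissues of the animal. The authors deposited relaxed lists of 26104 peaks for replicate 1, 27612 for replicate 2 and 30000 for both together. A list of 2465 peaks passed their reproducibility threshold. A gene is called bound when the summit of a thresholded peak, its point of highest signal, lay between 1000 bp before and 200 bp after the annotated 5′ end of the gene. Peak signal is the authors' value on a scale that is not stated, read depth is unknown from these files, and with no second group no test between groups was possible.

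Chaperones help other proteins reach and keep their folded shape. HSP70 proteins bind exposed hydrophobic stretches in cycles of ATP hydrolysis, and DnaJ proteins, through their J domain, bring clients to HSP70 and start that hydrolysis. Prefoldin is a jellyfish-shaped complex of 6 different subunits that passes new actin and tubulin chains to the chaperonin, a double ring built from 8 different CCT subunits in which those chains fold. Small heat shock proteins hold unfolded proteins without ATP. Some of these genes are expressed in every cell at all times, while others are switched on by heat through the transcription factor HSF-1, or by unfolded protein in the endoplasmic reticulum or the mitochondria.

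ZTF-18 was found at 22 of the 65 chaperone genes (33.8%, exact 95% interval 22.6 to 46.6), beside 8.18% of all protein-coding genes. Of the 6 prefoldin genes 4 were bound (66.7%, 22.3 to 95.7), and of the 8 chaperonin genes 4 (50%, 15.7 to 84.3). The DnaJ family had 8 bound of 29 genes (27.6%, 12.7 to 47.2) and the heat shock family 6 of 22 (27.3%, 10.7 to 50.2). The share of each family was higher than the 8.18% of all genes, but a difference from all genes was not tested. Each interval treats the genes of a family as independent, and the members were chosen with earlier results of these data known. The intervals of the 4 families overlapped each other, so no order among the families can be read at these sizes. The intervals cover counting error only, and no test was made on the lists.

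**Figure D1:**
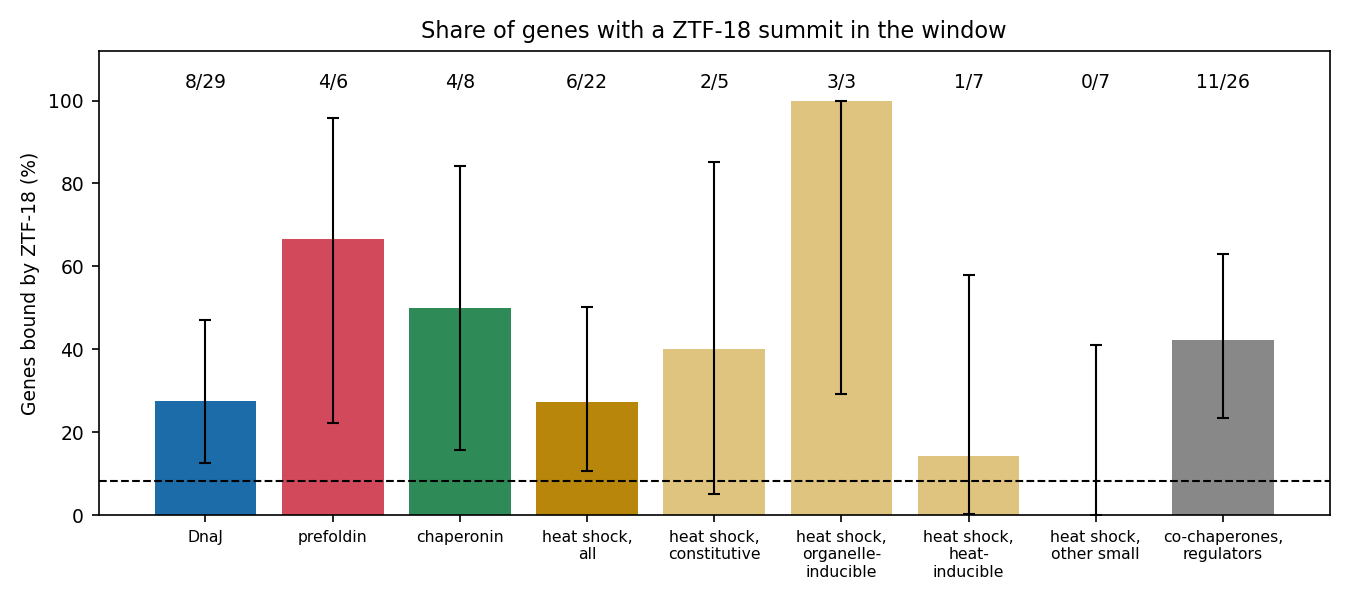
Share of genes bound by ZTF-18 (%, vertical axis) in each family, in the classes of heat shock genes and in the list of co-chaperones and stress regulators; bars are shares, black lines exact 95% intervals, the counts stand above the bars and the dashed line is the 8.18% of all protein-coding genes. Each of the 4 families lies above the dashed line, from 27.3% to 66.7%, with intervals that overlap.

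The bound chaperone genes fell into a small strong set and a large weak one. Peak signal was 5195 at dnj-9, 4260 at dnj-19, 2054 at pfd-3 and 1713 at pfd-6. Next came cct-7 at 686, and the 17 others ranged from 94.3 at dnj-10 to 305 at dnj-28. Signal over 1000 was thus seen at 4 of 22 bound chaperone genes (18.2%), beside 16% of the 1634 bound genes of all kinds. The median was 211 for the bound chaperone genes and 161 for all bound genes. No gene of the chaperonin or heat shock families was among the strong set, in which DnaJ and prefoldin genes supplied 2 each. The families have too few bound genes to be compared in this.

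The stretches of DNA under some of these summits are shown because the strong and the weak ones differed in the words they hold. From the 100 strongest nuclear summits that bind no chaperone gene, the 8 words of 6 bases most in excess over flanking DNA were taken, counted on both strands. The word GCGCCA was found at 75 of the 100 summits and at 2 of their flanks. The next were CGCCAG at 65, GCGCAA at 59, GGCGCA at 57, GCGTCA at 57, GCCAGC at 51, AACGCG at 50 and GCGCAC at 44 of the summits. They overlap each other, so several can come from a single run of bases. Each stretch below covers up to 50 bp on either side of the summit, reads 5′ to 3′ on the strand of the chaperone gene, and has every match to the 8 words in capitals. The bases are those of the WBcel235 (ce11) genome as RefSeq holds it. The regions are chrII:4851784-4851884 for dnj-9, chrV:5505196-5505252 for dnj-19, chrIII:4508531-4508631 for cct-5, chrIV:11149766-11149866 for pfd-1, chrV:1871898-1871998 for cct-7 and chrIV:17278560-17278660 for hsp-1. Those of dnj-19 and cct-5 are on the minus strand of the assembly and the others on the plus strand, and the stretch at dnj-19 is shortened to 57 bp because it runs into the untranslated region of a neighbouring gene.
dnj-9: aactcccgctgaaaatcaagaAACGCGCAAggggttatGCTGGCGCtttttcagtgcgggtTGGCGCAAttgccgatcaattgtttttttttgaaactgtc
dnj-19: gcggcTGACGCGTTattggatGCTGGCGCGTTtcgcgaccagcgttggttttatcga
cct-5: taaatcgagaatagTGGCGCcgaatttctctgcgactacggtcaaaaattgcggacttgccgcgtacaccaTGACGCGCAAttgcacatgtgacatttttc
pfd-1: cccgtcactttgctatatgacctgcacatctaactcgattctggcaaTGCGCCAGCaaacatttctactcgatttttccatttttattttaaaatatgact
cct-7: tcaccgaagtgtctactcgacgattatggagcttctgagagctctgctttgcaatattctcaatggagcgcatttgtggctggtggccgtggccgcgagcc
hsp-1: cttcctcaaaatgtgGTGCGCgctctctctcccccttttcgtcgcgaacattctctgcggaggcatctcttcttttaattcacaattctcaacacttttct

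The summits of dnj-9 and dnj-19 held 6 of the 8 words each, pfd-3 held 7 and pfd-6 held 5. The count at dnj-19 covers the full 50 bp on either side, and its GCGCAC lies outside the shortened stretch shown. All 4 strong summits held the leading word GCGCCA, as did 66.7% of the 93 other nuclear summits with signal over 1000 that were not used to choose the words. Among the 22 weaker chaperone summits, 3 held it (13.6%), beside 10.6% of the 2252 weaker nuclear summits. Those 3 were cct-5 with 3 of the words, dnj-29 with 3 and pfd-1 with 4. The cct-7 summit, the strongest of the weaker set, held none, and 12 of the 22 held none (54.5%, beside 64.8% of weaker nuclear summits). Heat shock genes held at most 1 of the words at each of their 7 summits, and none of those summits held GCGCCA. Within the promoter window of 1201 bp, GCGCCA occurred in 18.4% of all protein-coding genes, so the word alone does not mark a bound gene. A match is a description of letters and was not tested as a binding site.

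**Figure D2:**
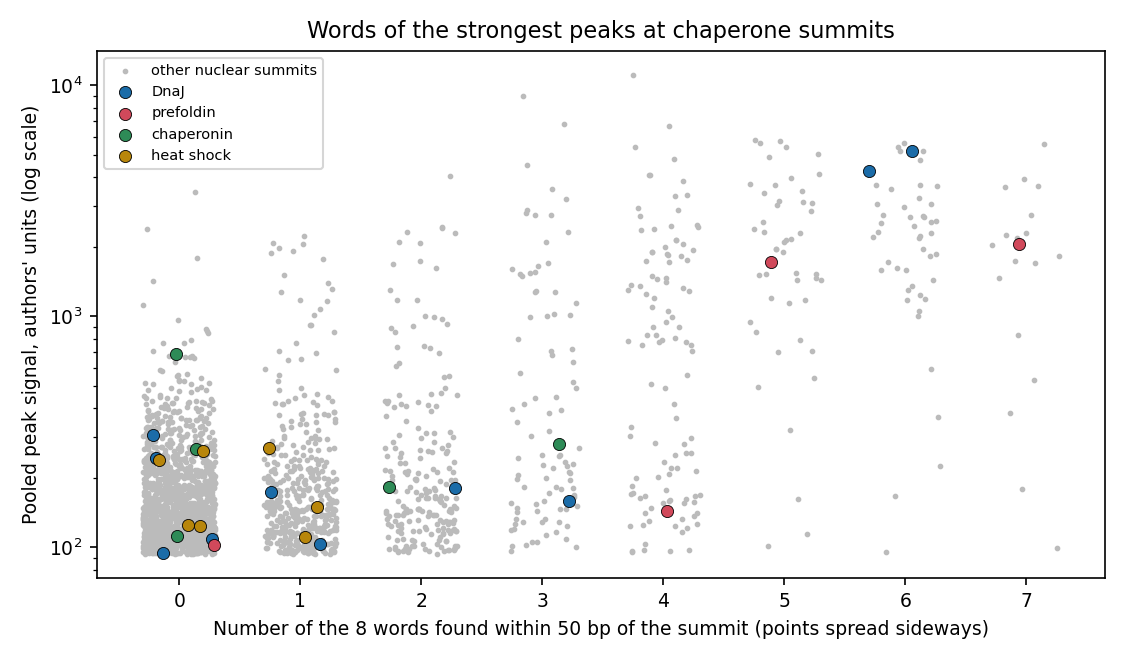
Pooled peak signal (vertical axis, authors' units, log scale) against the number of the 8 words found within 50 bp of the summit, for every nuclear summit of the thresholded list; grey points are other summits and coloured points chaperone summits by family. The 4 chaperone summits with signal over 1000 hold 5 to 7 words, and the weaker ones hold 0 to 4.

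Both replicates placed the strong chaperone peaks at nearly the same rank. The peak at dnj-9, whose product RefSeq describes by its J domain alone, spans chrII:4851326-4852388. Its signal was 3108 in replicate 1 (rank 14) and 2136 in replicate 2 (rank 17). At dnj-19, a class A DnaJ protein of the cytosol and nucleus (peak chrV:5504709-5505708), signal was 2526 in replicate 1 and 1773 in replicate 2, at ranks 23 and 25. The pfd-3 peak had 1205 (rank 112) and 874 (rank 104), and the pfd-6 peak 1085 (rank 132) and 654 (rank 156). Each of the 22 bound chaperone genes had an overlapping peak in both relaxed lists, and at 19 of them it was among the 2465 strongest of each replicate. Across the 22 genes the signals of the replicates had a Spearman rho of 0.936, and across the 18 weaker ones 0.882. These values describe genes, not independent samples, and the thresholded list itself is built from both libraries. Signal was higher in replicate 1 at 19 of the 22 genes, with a median ratio of 1.28 to replicate 2, and the lists of the replicates are on scales of their own.

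**Figure D3:**
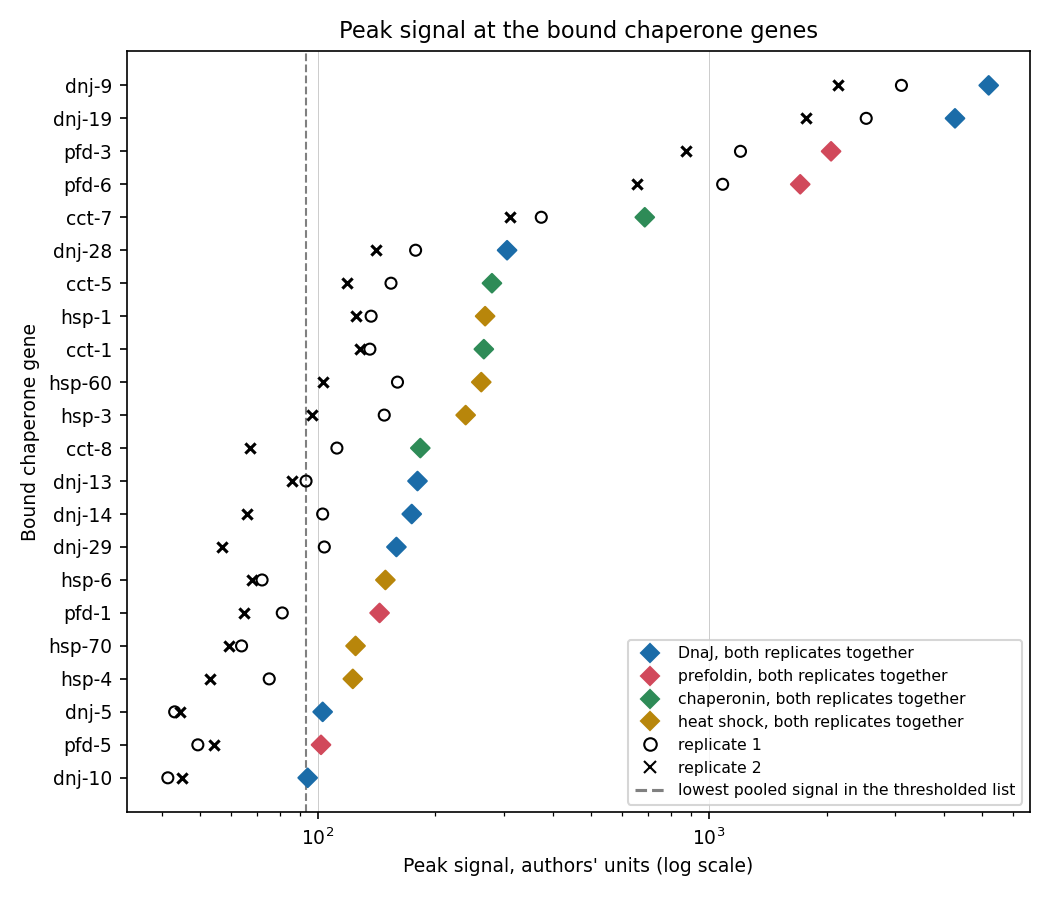
Peak signal (horizontal axis, authors' units, log scale) at each of the 22 bound chaperone genes, ordered by the pooled value; diamonds are pooled signal coloured by family, circles replicate 1, crosses replicate 2, and the dashed line the lowest pooled signal of the thresholded list, 93.6. The 4 genes dnj-9, dnj-19, pfd-3 and pfd-6 stand to the right of cct-7 at 686 and all others in both replicates.

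Within the DnaJ family, the bound genes encode proteins of several compartments. Beside dnj-9 and dnj-19 they were dnj-28 at signal 305, dnj-13 at 180, dnj-14 at 174, dnj-29 at 159, dnj-5 at 103 and dnj-10 at 94.3. The product of dnj-13 is a class B DnaJ protein that works with HSP70 in the cytosol, and dnj-14 encodes the cysteine string protein of synaptic vesicles. The gene dnj-29 encodes a relative of Sec63 in the endoplasmic reticulum, and dnj-10 a mitochondrial member. At dnj-13 the signal was 93.4 in replicate 1 and 85.9 in replicate 2, and at dnj-14 it was 103 and 66.1. The peaks at dnj-5 and dnj-10 were the weakest. Signal at dnj-5 was 43.1 (rank 3923) in replicate 1 and 44.4 (rank 2477) in replicate 2. At dnj-10 it was 41.4 (rank 4185) and 45.0 (rank 2423). Without replicate 2, using the 2465 strongest peaks of replicate 1, neither gene was bound, and without replicate 1 dnj-5 was not.

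Among the 21 unbound DnaJ genes, 15 had a summit in the relaxed pooled list. The highest was dnj-22 with signal 87.5 (rank 2709), just below the lowest thresholded signal of 93.6 and the 94.3 of dnj-10. It was followed by dnj-23 at 81.1, dnj-11 at 60.3, dnj-12 at 60.2 and dnj-1 at 58.5. The gene dnj-12 encodes another class A protein of the cytosol, and its signal of 60.2 stands beside 4260 at dnj-19. The summit of 4260 is nearer to nhr-47, at 7 bp, than to dnj-19, at 389 bp, so it cannot be given to dnj-19 alone. In replicate 1 the dnj-12 window held a peak of 55.2 and in replicate 2 one of 28.7. The others were dnj-2, dnj-3, dnj-4, dnj-7, dnj-8, dnj-16, dnj-18, dnj-20, dnj-25 and dnj-30, with signals from 19.2 to 48.0. No summit of the pooled list fell in the windows of dnj-15, dnj-17, dnj-21, dnj-24, dnj-26 and dnj-27.

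**Figure D4:**
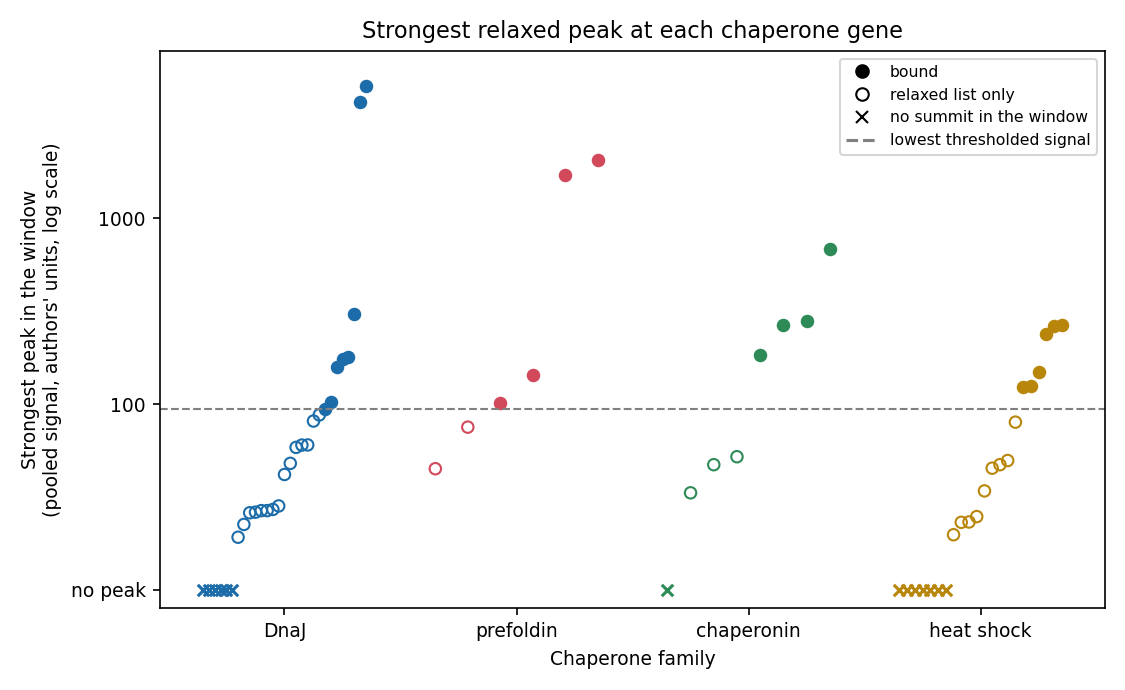
Pooled signal (vertical axis, authors' units, log scale) of the strongest summit of the relaxed pooled list in the window of each of the 65 chaperone genes, by family; filled circles are bound genes, open circles genes with a relaxed peak only, crosses set at an arbitrary height genes with no summit, and the dashed line the lowest thresholded signal of 93.6. Each of the 6 prefoldin genes has a peak, while 6 DnaJ, 1 chaperonin and 7 heat shock genes have none.

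The 6 subunits of prefoldin work in equal numbers in the complex, but their genes carried very different signals. Peaks at pfd-3 and pfd-6, at 2054 and 1713, stood far above those at pfd-1 at 144 and pfd-5 at 102. The genes pfd-4 and pfd-2 had relaxed peaks alone, at 75.2 and 44.9. At pfd-1 the signal was 81.2 in replicate 1 and 64.8 in replicate 2, and at pfd-5 it was 49.4 and 54.2. The pfd-5 peak ranked 3187 in replicate 1, so that gene was not bound without replicate 2. The genes pfd-3 and pfd-5 encode the alpha-type subunits, and both were bound. The other 4 genes encode the beta-type, of which pfd-6 and pfd-1 were bound and pfd-2 and pfd-4 were not. With 6 genes no difference between the types can be read, and none was tested.

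Chaperonin genes had peaks of middling or low signal. The highest was cct-7 at 686, with 373 in replicate 1 and 310 in replicate 2. The genes cct-5 at 279, cct-1 at 266 and cct-8 at 183 followed. In replicate 1 their signals were 154, 136 and 112, and in replicate 2 they were 119, 128 and 67.0. The unbound subunit genes cct-6, cct-2 and cct-4 had relaxed peaks of 52.1, 47.2 and 33.3, and cct-3 had none in any of the 3 relaxed lists. The cct-6 window held a peak of 44.9 in replicate 2, at rank 2437, and none in replicate 1, so cct-6 counted as bound without replicate 1.

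The bound heat shock genes were hsp-1, hsp-60, hsp-3, hsp-6, hsp-70 and hsp-4. Grouped by how they are regulated, 2 of 5 constitutive genes were bound (40%, exact 95% interval 5.27 to 85.3) and 4 of 10 stress-inducible genes (40%, 12 to 73.8). The shares were the same in the thresholded list, with intervals too wide to tell even large differences. They were not the same under other settings, given here with the share of all genes in brackets. In the upper 1232 peaks 2 of 5 stood against 1 of 10 (4.28%). With the 500 bp window (6.57%) or the nearest 5′ end (6.02%) it was 2 of 5 against 2 of 10. In the relaxed pooled list it was 5 of 5 against 6 of 10 (39.0%), and without replicate 2 it was 3 of 5 against 4 of 10 (7.85%). The classes were assigned from textbook knowledge, and hsp-1 is also raised mildly by heat. Counted as inducible, it would make 1 of 4 against 5 of 11. No other assignment was tried, and moving any other gene would change these counts too. The bound constitutive genes were hsp-1, the main HSP70 of the cytosol, at signal 268, and hsp-3, an HSP70 of the endoplasmic reticulum, at 239. In replicates 1 and 2 their signals were 137 and 125 for hsp-1, and 148 and 96.8 for hsp-3. Relaxed peaks alone were found at hsp-110, the exchange factor of HSP70, at 80.0, at hsp-90 at 34.1, and at hsp-75, the mitochondrial HSP90, at 23.1. The hsp-110 window held a peak of 110 in replicate 1 (rank 973) and 37.3 in replicate 2 (rank 3279), so it counted as bound without replicate 2. With the 5′ end of every transcript in place of that of the gene, hsp-90 was bound as well, which made 3 of 5, beside 8.75% of all genes.

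The inducible genes are described by the stress they answer to, with no test between the classes. The 3 genes of the organelle responses were all bound (100%, exact 95% interval 29.2 to 100): hsp-60, the chaperonin of mitochondria, at signal 262, hsp-6, the mitochondrial HSP70, at 149, and hsp-4, the inducible HSP70 of the endoplasmic reticulum, at 123. In replicates 1 and 2 their signals were 160 and 103, 72.1 and 68.1, and 75.2 and 53.0. That count fell to 1 of 3 in the upper 1232 peaks (hsp-60), with the window from 500 bp upstream (hsp-6) and with the nearest 5′ end alone (hsp-4). Among the 7 heat-inducible genes 1 was bound (14.3%, 0.361 to 57.9), an interval that overlaps that of the organelle genes and holds the 8.18% of all genes. It was the cytosolic hsp-70, at 125, with 63.9 and 59.5 in the replicates. Sorted by protein type instead, a grouping made after the values were seen, the 5 HSP70 genes whose symbols begin with hsp- were all bound, with signals from 123 to 268, while stc-1, an HSP70-like gene outside the naming rule, was not. That count was read from the values and is no evidence for the group. Of the 13 small heat shock genes 0 were bound, which allows a share of up to 24.7% by the exact interval and so cannot be told from the 8.18% of all genes. The interval treats the 13 as separate genes, although the hsp-16 genes among them lie in head-to-head arrangements and 4 of them in identical copies. That count depends on the names. The small heat shock gene sip-1, whose symbol is outside the naming rule, had signal 1274. The gene F08H9.3, which RefSeq calls hsp-16.20, was bound at 95.2, close to the threshold, and its neighbour F08H9.4, called hsp-16.21, was not.

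The 6 genes of the hsp-16 group, the small heat shock proteins made in quantity after heat, lie in 3 head-to-head arrangements. Between hsp-16.2 and hsp-16.41 the pooled list held a weak summit of 45.2, which had a peak of 38.6 in replicate 2 and none in replicate 1. The window of hsp-16.41 also reached a summit of 49.7 at 969 bp upstream. The other 4 genes had no summit in the relaxed lists. They form mirrored copies, chrV:9087293-9088617 and chrV:9089280-9090604, and all 1325 bases of either were identical to those of the other read on the opposite strand. Reads from inside such copies cannot be assigned to either. How the authors treated such reads is not given in the sources used here, so no summit there does not show that the protein was absent. The other small genes hsp-17, hsp-43, hsp-25 and hsp-12.1 had relaxed peaks from 19.8 to 47.2, and hsp-12.2, hsp-12.3 and hsp-12.6 had none.

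The letters of the heat shock element, the site that HSF-1 recognizes, were frequent in heat shock windows whether or not the gene was bound. The element was searched on both strands as 3 alternating GAA and TTC units set apart by 2 bases, which contains the shorter GAANNTTC and TTCNNGAA. It was present in the window of 12 of 22 heat shock genes (54.5%), 3 of 29 DnaJ, 1 of 6 prefoldin and 0 of 8 chaperonin genes, beside 7.68% of all protein-coding genes. Of those 12 heat shock genes 4 were bound. All 7 heat-inducible genes held it, and 1 of those was bound. The 6 unbound ones, also among the 12, are the hsp-16 genes. They lie in 3 head-to-head arrangements, so the same DNA is counted for more than 1 gene. For the 4 in identical copies a missing summit does not show absence, so these counts do not relate the element to binding. Among bound genes of all kinds the share was 8.81%. Within 50 bp of the summit it was found at 2 of 26 chaperone summits, hsp-60 and hsp-70, beside 0.694% of all nuclear summits. The stretch at the hsp-60 summit, chrIII:1619032-1619132 on the plus strand, and the whole sequence between the unbound hsp-16.2 and hsp-16.41, chrV:1804958-1805177 on the plus strand, are shown with the element in capitals. Neither stretch holds any of the 8 words. The windows of hsp-16.2 and hsp-16.41 each held 2 elements, of which only 1 lies whole within the sequence shown between them.
hsp-60: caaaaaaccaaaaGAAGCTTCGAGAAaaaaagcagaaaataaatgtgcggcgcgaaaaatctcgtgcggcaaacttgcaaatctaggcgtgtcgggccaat
hsp-16.2 and hsp-16.41: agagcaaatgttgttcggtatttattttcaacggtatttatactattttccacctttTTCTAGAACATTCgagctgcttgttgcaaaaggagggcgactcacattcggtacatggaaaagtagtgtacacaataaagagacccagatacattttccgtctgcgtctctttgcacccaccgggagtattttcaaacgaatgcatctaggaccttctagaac

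The strongest summits lay at a median of 260 bp before the 5′ end of the bound chaperone genes, beside 250 bp for all bound genes. They were upstream at 21 of the 22, beside 1539 of the 1634 bound genes of all kinds. The window itself favours upstream positions, since it reaches 1000 bp before and 200 bp after the 5′ end. At 18 of the 22 genes (81.8%) the strongest summit lay within 500 bp upstream, beside 73.1% of all bound genes. Among the upstream summits, it was nearest at pfd-3 (25 bp upstream), dnj-10 (64 bp), pfd-5 (71 bp), pfd-6 (73 bp) and hsp-70 (80 bp). It was farthest at dnj-5 (750 bp), hsp-60 (660 bp) and hsp-4 (601 bp). At hsp-3 alone the strongest summit lay inside the gene, 22 bp past the 5′ end. Replicate 2 placed that summit 16 bp upstream and replicate 1 placed it 20 bp downstream. The genes dnj-28, dnj-29, cct-7 and hsp-3 each had a second, weaker summit in their window. Trans-splicing replaces the start of many worm messages, and the 5′ end in the annotation can then lie downstream of the true start. No chaperone summit was near a tRNA gene: the closest was 2350 bp away, at hsp-70, while 5.08% of all bound genes had their strongest summit within 150 bp of a tRNA gene.

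**Figure D5:**
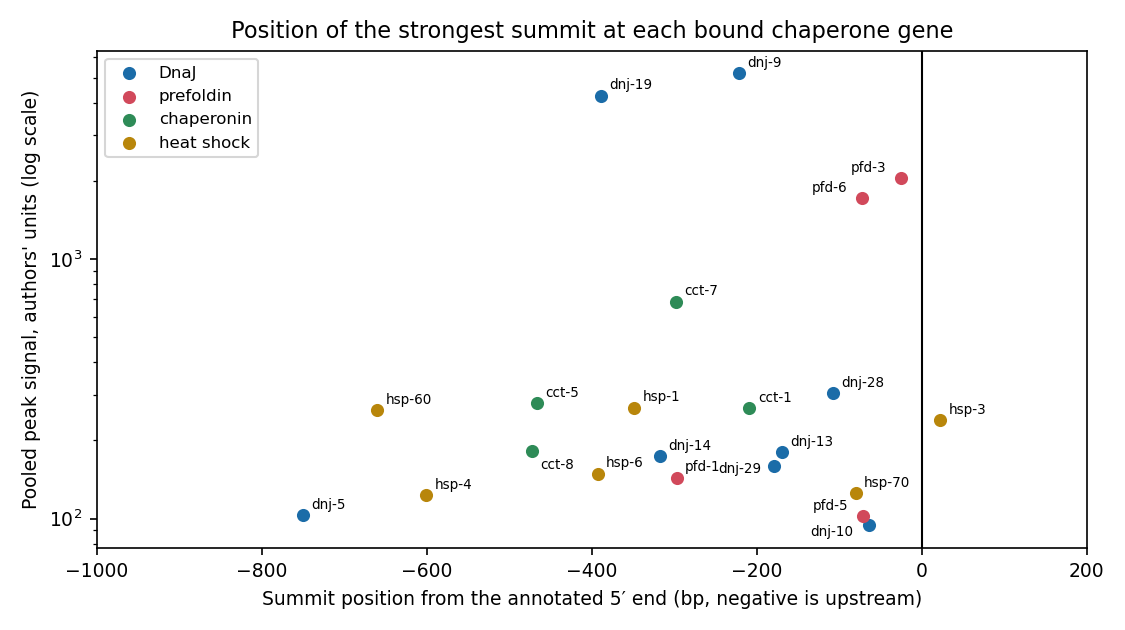
Position of the strongest summit at each of the 22 bound chaperone genes, in bp from the annotated 5′ end (negative is upstream), against pooled peak signal (authors' units, log scale), coloured by family. Of the 22 summits, 21 lie upstream, from 25 bp at pfd-3 to 750 bp at dnj-5, and hsp-3 lies 22 bp downstream. Among the 1634 bound genes of all kinds, 1539 have their strongest summit upstream.

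Many of these summits lie in the windows of both a chaperone gene and a neighbour, and cannot be given to either. At 14 of the 22 bound chaperone genes (63.6%) the strongest summit also fell in the window of another protein-coding gene, beside 52.3% of all bound genes. All 4 bound chaperonin genes shared theirs: cct-1 with mig-5, a Dishevelled gene of Wnt signalling, cct-5 with F25F2.1, cct-7 with T10B5.4 and cct-8 with Y55F3AR.2. The dnj-19 summit lay 389 bp from dnj-19 and 7 bp upstream of the hormone receptor gene nhr-47, while dnj-9 and pfd-3 shared theirs with no gene. The pfd-6 summit lay 73 bp upstream of pfd-6 and 911 bp upstream of rde-2, a gene of RNA interference on the same strand. The hsp-60 summit lay 153 bp upstream of Y22D7AL.10, which RefSeq annotates as the small mitochondrial heat shock protein that acts as lid of the HSP60 ring, and 660 bp upstream of hsp-60. The hsp-6 summit was nearer to C37H5.5, at 207 bp, than to hsp-6, at 393 bp. The pfd-5 summit lay 71 bp upstream of pfd-5 and 882 bp upstream of exos-9, an exosome subunit gene on the same strand. The others shared as follows: dnj-13 with F54D5.9, dnj-14 with glit-1, dnj-28 with supr-1, dnj-29 with ndua-2 and fld-1, and pfd-1 with F01G4.6. The weaker summit of hsp-3 was shared with C15H9.5. When each summit counted for the nearest 5′ end alone, 16 of the chaperone genes stayed bound, beside 6.02% of all genes. The genes cct-5, cct-8, dnj-14, dnj-19, hsp-6 and hsp-60 did not. The gene cct-7 stayed only through its second summit, of signal 112 and 98 bp upstream. Its strongest summit, of 686, was nearer to T10B5.4, at 141 bp, than to cct-7, at 298 bp. The cct-1 summit lay 209 bp from cct-1 and 211 bp from mig-5.

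At lower signal most chaperone genes had some peak. In the whole relaxed pooled list, which holds background as well as peaks, 51 of the 65 had a summit in the window (78.5%), beside 39.0% of all genes. These were 23 of 29 DnaJ, 6 of 6 prefoldin, 7 of 8 chaperonin and 15 of 22 heat shock genes. Among the 2465 strongest peaks of replicate 1 alone, 20 chaperone genes had a summit, beside 7.85% of all genes. In replicate 2 alone there were 23, beside 7.82%, and 19 genes were in both sets.

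Genes that assist or control the chaperones were bound at 11 of 26 (42.3%, exact 95% interval 23.4 to 63.1), beside 8.18% of all protein-coding genes, in a list chosen by known function. Apart from sip-1, described above, the co-chaperones and folding factors bound were crt-1, the calcium-binding lectin calreticulin, at signal 280, bag-1, an exchange factor of HSP70, at 268, enpl-1, the HSP90 of the endoplasmic reticulum, at 253, ahsa-1, the activator of HSP90, at 239, and uri-1, a relative of prefoldin, at 111. Of the 7 listed regulators of the unfolded protein responses 5 were bound. For mitochondria these were the transcription factor gene atfs-1 at 245 and ubl-5 at 106, and for the endoplasmic reticulum xbp-1 at 195, atf-6 at 195 and ire-1 at 121. The exceptions were dve-1 of the mitochondrial response and pek-1, a sensor of the endoplasmic reticulum. At ubl-5 the signal was 74.4 (rank 1752) in replicate 1 and 35.7 (rank 3527) in replicate 2. At ire-1 it was 82.0 (rank 1514) and 35.6 (rank 3543). Both peaks thus lay outside the 2465 strongest of replicate 2. Without replicate 1, 9 genes of the list of 26 were bound. The heat shock factor gene hsf-1 and its inhibitor gene hsb-1 were not bound, nor were the co-chaperone genes daf-41, sti-1, cdc-37, chn-1, unc-23, unc-45, pph-5 and fkb-6. The remaining unbound genes were stc-1, cnx-1 and tbca-1.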

How the data were processed

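Chromatin from 2 replicates of 1 group was sequenced. Of the narrowPeak lists on ce10 and ce11, those on ce11 were used. Per the file descriptions that the authors deposited with the samples, the relaxed lists mix peaks with background and feed a step that scores reproducibility (the irreproducible discovery rate). The thresholded list is what that step kept. The sources used here do not name the aligner, the peak caller, the threshold or the use of the control. The signal of a peak, as deposited by the authors, served to describe and rank peaks within a list.

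Genes came from Ensembl release 115 on WBcel235, which is ce11, and the hsp-16.1 and hsp-16.48 copies that share a symbol were told apart by their RefSeq names hsp-16.11 and hsp-16.49. Sequences and product names came from RefSeq on the same build. The signal of a replicate at a bound gene is that of its strongest relaxed peak overlapping the thresholded peak by at least 1 bp. For words, 50 bp on either side of the summit was compared with flanks at 250 to 300 bp. Shares have 95% intervals by the exact Clopper-Pearson method, for counting error alone. The window rule and the word ranking were tested on simulated data.

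The members, the lists and the comparisons were chosen with earlier results of these data known, and no gene list was tested. Named were all bound chaperone genes, all prefoldin, chaperonin and heat shock genes, the 5 strongest unbound DnaJ genes with values, genes that share a summit, and bound co-chaperones. Alternatives covered stricter and looser lists, each replicate alone, other windows and other ways of giving summits to genes. Versions were scipy 1.17.1, pandas 2.3.3, numpy 2.4.6 and Python 3.11.15.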

Additional observations from a re-analysis of the deposited data

How the results depend on the processing

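Counts are given out of 65 chaperone genes, 29 DnaJ, 6 prefoldin, 8 chaperonin, 22 heat shock, 5 constitutive and 10 stress-inducible heat shock genes, and 26 co-chaperones and regulators. In the 250 strongest peaks the bound genes in that order were 4, 2, 2, 0, 0, 0, 0 and 1, beside 1.46% of all genes. In the upper 1232 peaks 15 of the 22 remained, with 2 prefoldin, 3 heat shock and 1 stress-inducible gene, beside 4.28%. In the whole relaxed pooled list the counts were 51 in all, 23 DnaJ, 7 chaperonin, 15 heat shock, 5 constitutive and 25 co-chaperone genes, beside 39.0%. With the nearest 5′ end alone there were 2 chaperonin and 2 stress-inducible genes, beside 6.02%. The window from 500 bp upstream gave 2 stress-inducible genes, beside 6.57%, since dnj-5, hsp-4 and hsp-60 were lost. The cause of these shifts was not tested beyond the construction of each list. Leaving out each replicate gave 20 to 23 chaperone genes, 6 to 8 DnaJ, 3 to 4 prefoldin, 4 to 5 chaperonin, 6 to 7 heat shock, 2 to 3 constitutive, 4 to 4 stress-inducible and 9 to 11 co-chaperone genes. The other planned counts were within 1.5 times those reported. Chosen after seeing the data, RefSeq symbols gave 23 bound of 67 chaperone genes and 7 of 24 heat shock genes, counting the mirrored hsp-16 copies once gave 4 of 8 inducible genes, and counting hsp-1 as inducible gave 1 of 4 constitutive and 5 of 11 inducible genes. No paired analysis was possible because the study has 1 group. Read depth is unknown, so a missing peak does not show that the protein was absent.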

Other observations

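The neighbour upstream of a chaperone gene was on the opposite strand for 41 of the 65, and 16 of those 41 were bound (39.0%, beside 11.5% of all 9234 protein-coding genes with such a neighbour). With a neighbour on the same strand that ended 500 bp or more away, 3 of 11 were bound (27.3%, beside 4.06%). With a same-strand neighbour ending within 500 bp, an arrangement found inside operons, 3 of 13 were bound (23.1%, beside 7.39%), namely dnj-9, dnj-10 and pfd-6. The neighbour upstream was bound for 2 of the other 10, erm-1 before dnj-4 and T04A8.7 before dnj-18. Of the bound chaperone genes, 5 lay on chromosome I, 5 on II, 4 on III, 3 on IV, 3 on V and 2 on X, among 11, 12, 12, 11, 14 and 5 chaperone genes there. A gene that overlaps the 5′ end was also counted as the upstream neighbour, among the chaperone genes and among all genes. This was so at dnj-13, hsp-70 and hsp-90, all with a neighbour on the opposite strand, of which dnj-13 and hsp-70 were bound. These are counts, with no test.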
